A study of Mus musculus with 4 samples.

Results

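The nicotinic acetylcholine receptor subunits of the brain were described over the areas of 4 coronal brain sections of mouse offspring. The 9 members were the features with the symbols Chrna2, Chrna3, Chrna4, Chrna5, Chrna6, Chrna7, Chrnb2, Chrnb3 and Chrnb4, each present in 1 row, out of 19465 features in all. The sections came from wild-type male C57BL/6J pups at postnatal day 21. Their mothers (8 weeks old per the labels, with a wider range in the study's methods) ate a diet with folic acid (FA) at 2 mg/kg (MF group, labelled median folate, 2 sections) or at 20 mg/kg (HF group, labelled high folate, 2 sections), from 2 weeks before mating until the end of lactation. Both groups therefore received FA, and no section came from pups of mothers without it. RNA was read with Visium-FFPE, in which pairs of gene-specific probes are hybridised to a formalin-fixed section and counted as unique molecular identifiers (UMIs) in spots of a slide array. Each probe set has its own efficiency, so levels were compared between areas and sections and never between genes.

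Nicotinic receptors are cation channels of several subunits that open when acetylcholine binds. Alpha and beta subunits assemble in different combinations: receptors with alpha4 and beta2 are the main high-affinity form of the brain, alpha7 forms receptors of its own, and alpha3 with beta4, often with alpha5, is known from autonomic ganglia and from the medial habenula. The medial habenula is a small epithalamic nucleus above the thalamus whose neurons send their axons to the interpeduncular nucleus, and its ventral neurons use acetylcholine.

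The members lie in 6 places of the genome (GRCm38, GENCODE annotation). Chrna5 (ENSMUSG00000035594, chr9:54980880-55007779, plus strand), Chrna3 (ENSMUSG00000032303, chr9:55010111-55026562, minus strand) and Chrnb4 (ENSMUSG00000035200, chr9:55028154-55048779, minus strand) form 1 cluster with gaps of 2331 and 1591 bp. Chrnb3 (ENSMUSG00000031492, chr8:27368711-27399730, plus strand) and Chrna6 (ENSMUSG00000031491, chr8:27403212-27413944, minus strand) are 3481 bp apart. Chrna4 (ENSMUSG00000027577, chr2:181018380-181043546), Chrnb2 (ENSMUSG00000027950, chr3:89746195-89764632) and Chrna7 (ENSMUSG00000030525, chr7:63098692-63212569) lie alone on the minus strand, and Chrna2 (ENSMUSG00000022041, chr14:66135039-66152948) on the plus strand. No member overlaps another.

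Promoters of 6 members were found in the RefSeq table (GRCm38.p6), and Chrna2, Chrna6 and Chrnb3 had no entry. The 250 bases before the start are shown for Chrna3 (chr9:55026563-55026812, minus strand), whose transcripts were concentrated in the habenula, and for Chrnb2 (chr3:89764633-89764882, minus strand), whose transcripts were widespread. Capitals mark GGGCGG, the GC box, read on either strand.
Chrna3: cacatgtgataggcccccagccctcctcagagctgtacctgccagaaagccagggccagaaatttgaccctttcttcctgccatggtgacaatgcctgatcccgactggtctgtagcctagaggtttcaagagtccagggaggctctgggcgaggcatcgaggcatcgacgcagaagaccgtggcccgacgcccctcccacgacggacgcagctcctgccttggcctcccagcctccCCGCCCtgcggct
Chrnb2: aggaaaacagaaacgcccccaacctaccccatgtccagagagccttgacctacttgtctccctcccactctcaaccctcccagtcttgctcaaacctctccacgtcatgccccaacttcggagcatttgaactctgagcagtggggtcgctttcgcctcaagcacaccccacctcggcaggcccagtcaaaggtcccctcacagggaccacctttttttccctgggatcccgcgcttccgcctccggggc
The Chrna3 window held 1 GC box and had a GC content of 63.2%, and the Chrnb2 window held none and had 59.6%. Of the other windows, Chrna4 held 3 boxes, Chrna7 held 1 and Chrnb4 held 0, and Chrna5 held 0 before its first start and 4 before its other start. Annotated exons covered 235 of the 250 bases in Chrnb4, 128 in Chrna4, 43 in Chrna7 and 32 before the other start of Chrna5. These windows are therefore not wholly upstream sequence. The Chrna3 and Chrnb2 windows held no exon bases. A GC box occurred in 32.7% of 32851 promoter windows of the same length, whose median GC content was 52.4%. The TATA box (TATAAA), the cyclic AMP response element (TGACGTCA) and the POU4F1 motif (ATAATTAAT), searched on both strands, occurred in no member's window and in 12.4%, 1.55% and 0.259% of all windows.

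The 4 sections held 13452 spots with at least 500 UMIs and 250 genes, of 13470 deposited. Section totals ranged from 34983708 UMIs in HF replicate 1 to 90098381 in MF replicate 1, and the median per spot ranged from 9286 to 23543.5 UMIs in the same sections. MF replicate 1 held the most UMIs. The study's methods call the 2 sections of a group biological replicates, and the litters they came from are not given in the sources used here, so p-values measure the spread between these sections. The fit used for the tests shares its estimate of this spread between features. A gene's p-value therefore does not rest on its own spread alone. The barcodes that all sections share (2472) are positions of the slide array, not cells.

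Spots were clustered without the members and the related genes named further on, and clusters were named from marker genes. The habenula took 231 spots (74 and 59 in MF, 66 and 32 in HF) and was led by Gm5741, Pou4f1, Gpr151, Gng8, Irx2, Nppa, Htr5b and Tac2, with 7 of its markers among the leading genes. The thalamus took 2412 spots, the cortex 3120, the hippocampus 1083, the hypothalamus 1831 and the reticular thalamus 226. Striatum, white matter, meninges and ependyma were also tested, and choroid plexus (43 spots) was too small. A spot covers several cells, so fewer expressing cells and less RNA per cell cannot be told apart. Levels are UMIs summed over an area of a section, in CPM (the feature's share of all UMIs of that sum, scaled to a fixed total), as mean ± SD of 4 sections.

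Chrna3, Chrnb4 and Chrnb3 transcripts were concentrated in the habenula of every section, Chrna4 and Chrnb2 were highest in the thalamus, Chrna7 and Chrna5 were highest in the hippocampus, and Chrna6 and Chrna2 were close to the detection limit. The habenula made up 0.957 to 2.06% of a section's spots and held 47.2 to 53.5% of the section's Chrna3 UMIs, 52.6 to 59.8% of Chrnb3 and 60.9 to 67.9% of Chrnb4. The thalamus, with 15.9 to 18.8% of the spots, held 44.6 to 60.04% of the Chrna4 UMIs and 31.3 to 47.5% of the Chrnb2 UMIs. The maps of Chrna3 and Chrna4 show these areas.

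**Figure D1:**
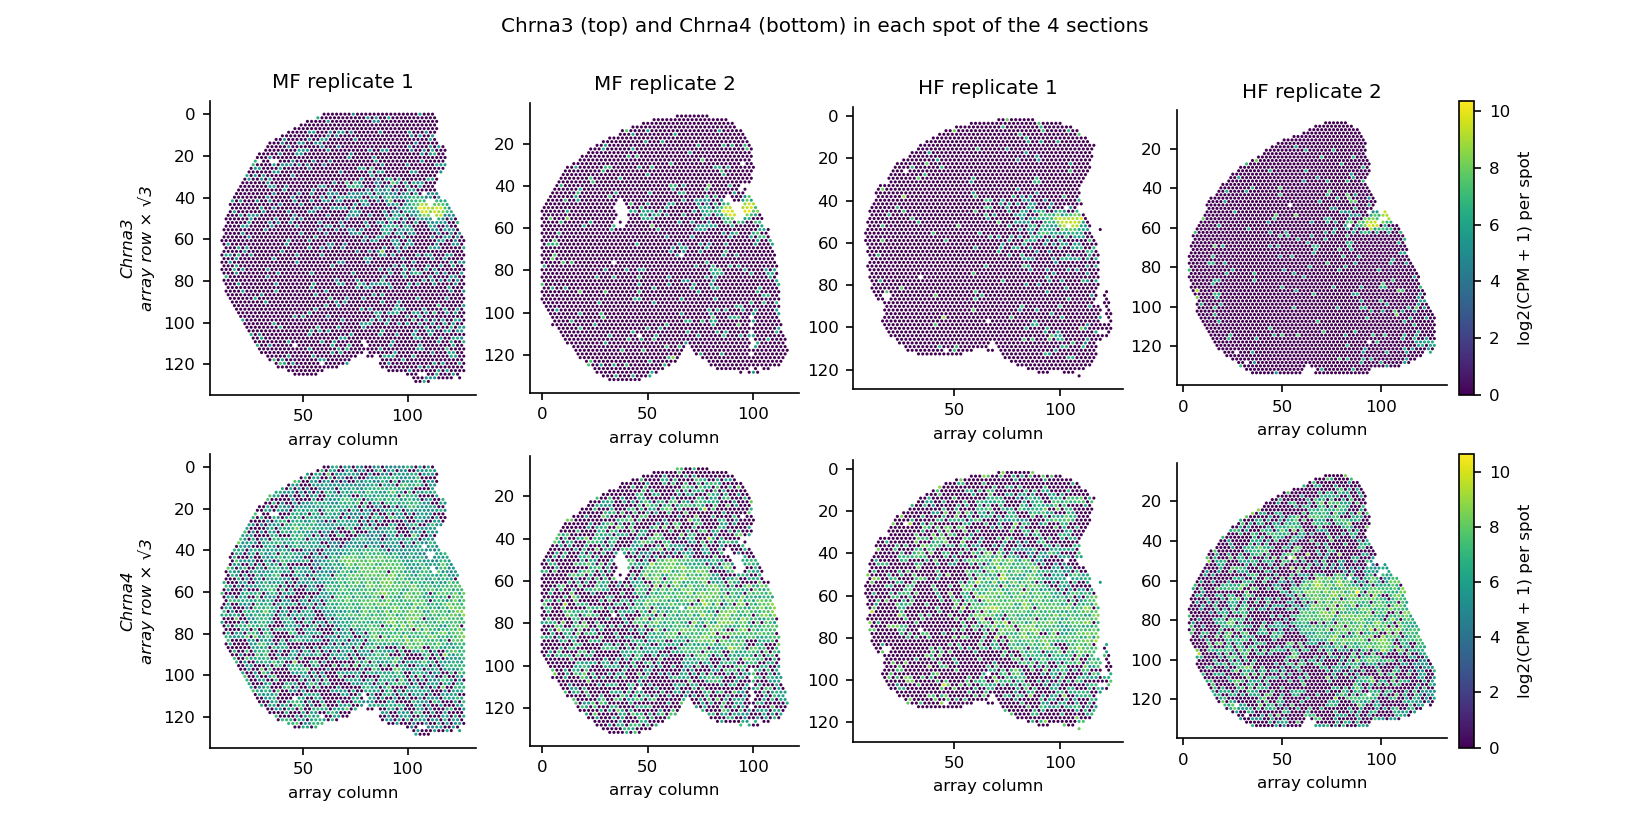
Chrna3 (top row) and Chrna4 (bottom row) in every spot of the 4 sections, coloured by log2(CPM + 1), with the array column and row as axes. High Chrna3 spots form a small group in the habenula of each section, and high Chrna4 spots fill the thalamus and a deep band of the cortex.

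Chrna3 encodes alpha3, an acetylcholine-binding subunit. Its habenular level was 243 and 328 CPM in the MF sections and 249 and 354 CPM in the HF sections, from 245 to 719 UMIs a section. The lowest habenular value lay above every value of every other area, and MF and HF values alternated. The mean was 293 ± 56.2 CPM, 16.8 times the next mean, 17.5 ± 9.59 in the ependyma (8.07 to 30.5 times within single sections). Hippocampus (13.1 ± 4.37), thalamus (12.1 ± 2.32) and hypothalamus (9.60 ± 2.27) followed, and meninges, cortex, white matter, reticular thalamus and striatum had means of 3.19 to 5.59 CPM. From the ependyma downward, neighbours in this order overlapped in their section values.

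UMIs of Chrna3 were found in 71.2 to 90.6% of habenular spots, at a median of 19282 to 38619.5 UMIs per spot, and in 10.5 to 27.6% of thalamic spots, at 12696 to 26901.5. With spots thinned to 5000 UMIs, the shares were 33.8 to 65.6% and 3.80 to 6.78%. The thinned habenular share exceeded the thinned thalamic share in every section. The 742 spots below 5000 UMIs were left out of this comparison, and all 231 habenular spots stayed in it.

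Chrnb4 encodes beta4, the usual partner of alpha3. Its habenular level was 86.1 and 122 CPM in MF and 87.6 and 158 CPM in HF. Every section's habenula lay above all other areas, with a mean of 113 ± 33.9 CPM. The next mean, 5.30 ± 4.69 CPM in the ependyma, was 21.4 times lower (7.11 to 60.7 times within single sections). The ependyma held only 17 to 20 spots a section. Without spots within 3 array steps of the habenula, its mean was 3.03 CPM, from 5 UMIs. Hippocampus (3.74 ± 2.54), thalamus (2.48 ± 1.47), meninges (2.36 ± 0.860), reticular thalamus (1.57 ± 1.19), white matter (1.06 ± 1.02), hypothalamus (1.02 ± 0.212), cortex (0.750 ± 0.154) and striatum (0.121 ± 0.242) followed with overlapping values. UMIs of both Chrna3 and Chrnb4 were found in 49.2 to 68.8% of habenular spots and in 0.642 to 1.68% of thalamic spots, which were less deep.

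Chrnb3 encodes beta3, an accessory subunit. Its habenular level was 61.4 and 75.7 CPM in MF and 64.5 and 114 CPM in HF. The mean of 78.9 ± 24.3 CPM was followed among the tested areas by hippocampus (3.67 ± 1.62), cortex (2.58 ± 0.896), meninges (2.07 ± 1.13) and thalamus (1.43 ± 0.675), and no Chrnb3 UMI was counted in the ependyma. HF replicate 2 had the highest habenular level of Chrna3, Chrnb4 and Chrnb3 and the fewest habenular spots.

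**Figure D2:**
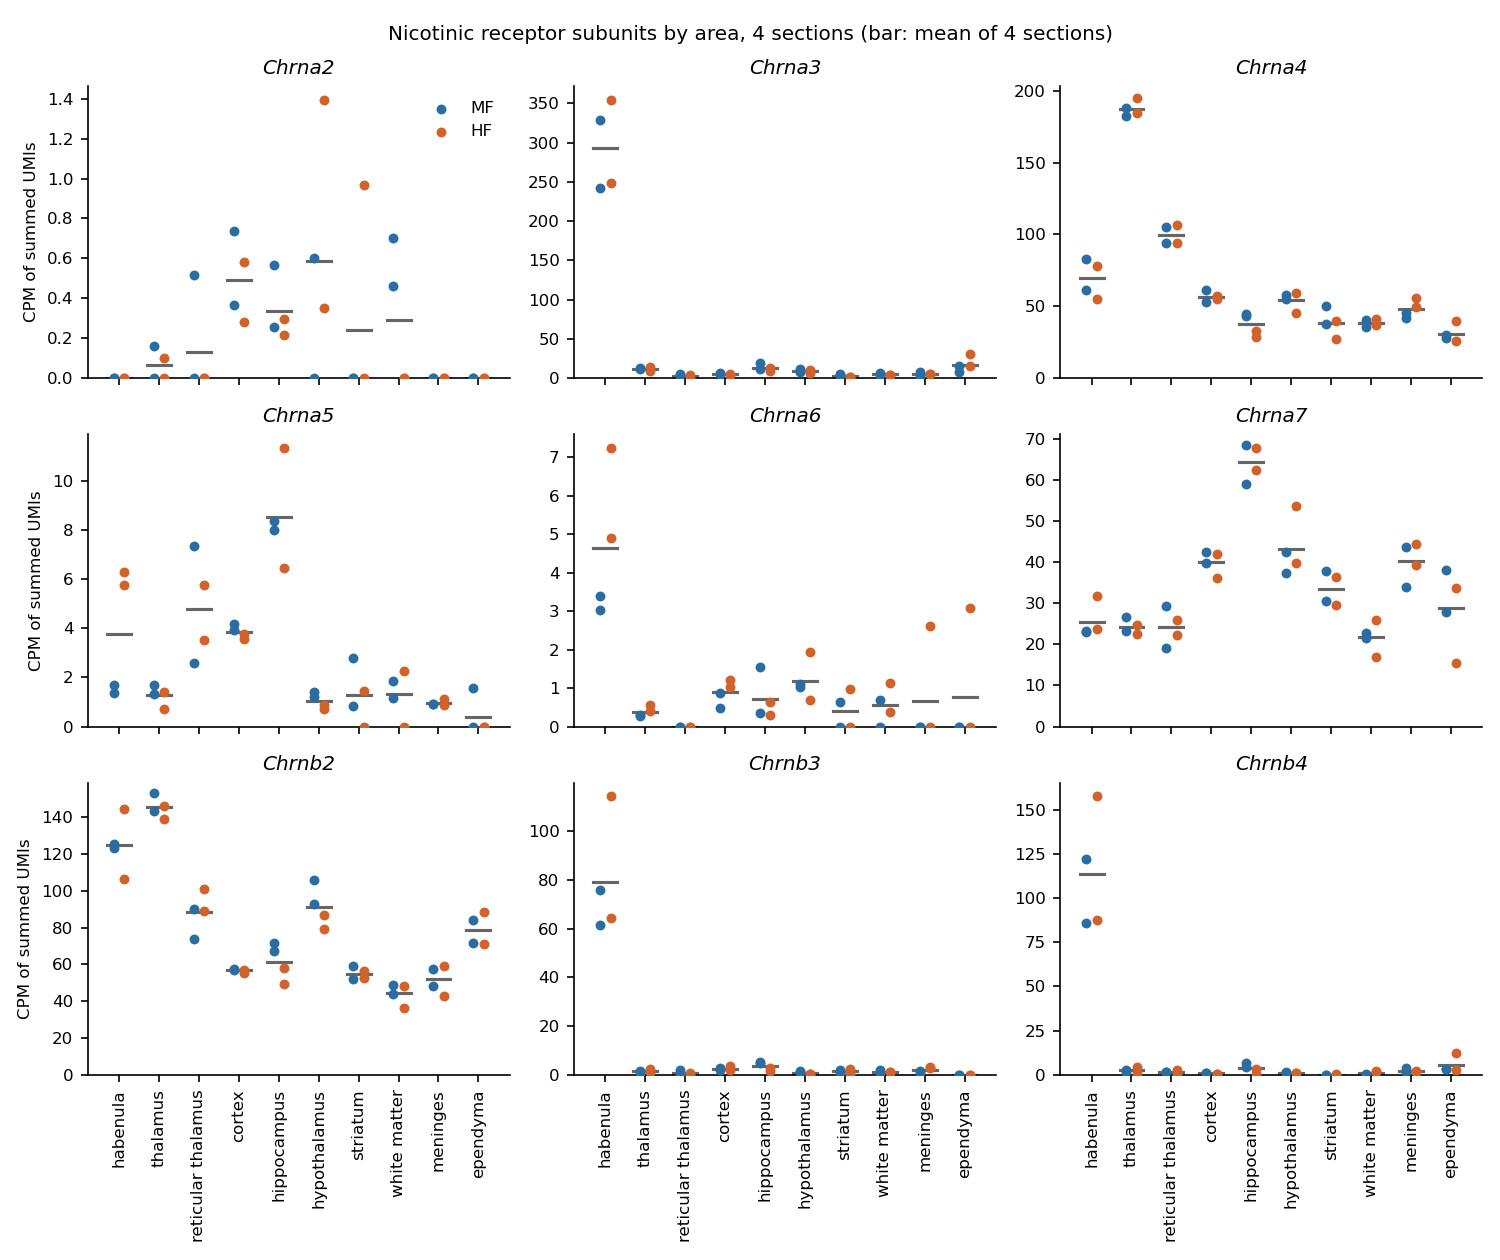
CPM of the 9 members (1 panel each, own scale) in 10 areas, with MF sections in blue, HF sections in orange and a bar at the mean of 4 sections. Chrna3, Chrnb3 and Chrnb4 stand high in the habenula alone, Chrna4 and Chrnb2 are highest in the thalamus, and Chrna5 and Chrna7 are highest in the hippocampus.

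Each area was then tested against the mean of the other 9 areas within sections (edgeR, 13147 features). Chrna2 and Chrna6 fell below the filter on low counts, so these tests cover 7 of the 9 members. In the habenula, 5 of the 7 were called higher and 1 lower, where 13.9% of all features were called higher and 13.9% lower. Chrnb3 and Chrnb4 passed the filter through their habenular counts, so their part in this count rests on the area that admitted them. Chrna3 was higher by 5.23 on the log2 scale (SE 0.11, adjusted p = 2.8e-40), Chrnb4 by 6.21 (SE 0.20, adjusted p = 4.8e-32) and Chrnb3 by 6.05 (SE 0.21, adjusted p = 7.3e-29). No Chrnb3 UMI was counted in the ependyma, so the differences of Chrnb3 from the mean of the other areas, with their errors and p-values, depend on how the fit treats a count of 0, whereas its contrasts with single other areas do not. Chrnb2 was higher by 0.73 (SE 0.07, adjusted p = 2.3e-13). Chrna4 was higher by 0.28 (SE 0.10, adjusted p = 0.019), a call lost when spots were thinned (0.12, adjusted p = 0.772), without MF replicate 1 (0.10, adjusted p = 0.651), at a coarser clustering (0.14, adjusted p = 0.284) and with the habenula drawn from marker genes (0.18, adjusted p = 0.162). Chrna7 was lower (log2 difference -0.55, SE 0.13, adjusted p = 5.7e-04), a call lost when spots were thinned (adjusted p = 0.392). Chrna5 did not pass (0.60, SE 0.41, adjusted p = 0.276).

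Against the thalamus alone, the habenula was higher in Chrna3 by 4.41 (SE 0.13, adjusted p = 1.2e-32), in Chrnb4 by 5.32 (SE 0.23), in Chrnb3 by 5.61 (SE 0.24) and in Chrna5 by 1.07 (SE 0.43, adjusted p = 0.041), and it was lower in Chrna4 (-1.54, SE 0.10, adjusted p = 1.8e-19) and Chrnb2 (-0.38, SE 0.07, adjusted p = 1.8e-05). Of all features, 17.6% were called higher and 18.1% lower. The Chrna5 call rested on 19 habenular UMIs, at 1.35 and 1.70 CPM in MF and 6.30 and 5.78 CPM in HF. Against the cortex, Chrna3 was higher by 5.62 (SE 0.15), Chrnb4 by 6.87 (SE 0.27), Chrnb3 by 4.79 (SE 0.22) and Chrnb2 by 0.97 (SE 0.08), and Chrna7 was lower (-0.86, SE 0.13), where 26.1% of features were called higher and 22.4% lower. Chrna4 (0.17, SE 0.11, adjusted p = 0.184) and Chrna5 (-0.50, SE 0.36, adjusted p = 0.244) were not called between habenula and cortex, and Chrna7 (-0.14, adjusted p = 0.467) was not called between habenula and thalamus. The section block was kept in these contrasts, which were chosen after the data were seen.

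At a finer clustering, the habenula fell into 103 spots led by Gm5741, Pou4f1 and Gng8 and 127 spots led by Gpr151, Pou4f1 and Prokr2. Chrna3 reached 450 and 583 CPM in MF and 399 and 460 CPM in HF in the first spots, and 53.2 and 65.5 CPM in MF and 67.9 and 99.0 CPM in HF in the other spots. The 2 sets did not overlap in any section, for Chrna3, Chrnb3 or Chrnb4. Chrna3 was higher in the Gm5741-led spots by 2.87 on the log2 scale (SE 0.11, adjusted p = 8.5e-93), Chrnb3 by 3.06 (SE 0.19, adjusted p = 2.0e-43), from 16.1 to 126 CPM, and Chrnb4 by 2.78 (SE 0.16, adjusted p = 3.0e-51), from 25.7 to 180 CPM. Of 9358 features, 11% were called higher there and 13.2% lower. Chrna4 (0.25, adjusted p = 0.239), Chrnb2 (0.22, adjusted p = 0.162) and Chrna7 (-0.12, adjusted p = 0.797) were not called, with 79.0 against 55.5, 134 against 111 and 23.7 against 28.0 CPM. The median spot held 28121 UMIs in the Gm5741-led spots and 19311 in the others, and the part of depth was not tested.

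Levels also differed with the distance from the habenula, counted in steps of the slide array. Chrna3 had a mean of 293 CPM in the habenula, 40.4 at 1 step, 23.2 at 2, 21.8 at 3 and 6.37 beyond 12 steps. Chrnb4 fell from 113 to 18.2 CPM at 1 step and 0.949 beyond 12 steps, and Chrnb3 from 78.9 to 9.62 and 1.47. Mean Chrna4 stood at 69.4 CPM in the habenula and 77.1 at 1 step, was highest at 7 to 12 steps (146) and stood at 65.8 beyond 12 steps. The highest ring was nearer in the HF sections, at 4 to 6 steps in HF replicate 1 (151) and at 2 steps in HF replicate 2 (143). The first ring held 26 to 33 spots a section. These values describe the rings and were not tested. Without spots within 3 steps of the habenula, the thalamic means were 10.3 CPM for Chrna3, 1.54 for Chrnb4, 1.09 for Chrnb3 and 192 for Chrna4.

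Chrna4 encodes alpha4, the binding subunit of the high-affinity receptor. Its thalamic level was 182 and 188 CPM in MF and 185 and 195 CPM in HF. The 4 values were close to each other and above every other area. The order continued with reticular thalamus (99.8 ± 6.79), habenula (69.4 ± 13.2), cortex (56.6 ± 3.59), hypothalamus (54.5 ± 6.14), meninges (48.0 ± 6.01), white matter (38.8 ± 2.67), striatum (38.8 ± 9.28), hippocampus (37.6 ± 7.77) and ependyma (31.0 ± 6.25). The thalamus was 1.88 times the reticular thalamus, 1.73 to 2.07 times within sections, and neighbours from the habenula downward overlapped.

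Chrnb2 encodes beta2, the partner of alpha4. Its thalamic level was 153 and 143 CPM in MF and 139 and 146 CPM in HF, and its habenular level was 125 and 123 in MF and 106 and 145 in HF. Thalamus (145 ± 5.90) and habenula (125 ± 15.6) overlapped, and both lay above hypothalamus (91.0 ± 11.3), reticular thalamus (88.3 ± 11.1), ependyma (78.7 ± 8.84), hippocampus (61.5 ± 9.98), cortex (56.7 ± 1.03), striatum (55.0 ± 3.28), meninges (51.9 ± 7.80) and white matter (44.2 ± 5.74). From the hypothalamus downward, each area overlapped the next. Chrna4 and Chrnb2 UMIs lay in the same spot in 72.7 to 94.1% of thalamic spots and in 44.1 to 98.6% of habenular spots. In both areas the share was highest in MF replicate 1, the section with the most UMIs, and the part of depth was not tested.

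In the thalamus, Chrna4 was higher than in the other areas by 1.99 on the log2 scale (SE 0.05, adjusted p = 1.7e-35) and Chrnb2 by 1.15 (SE 0.04, adjusted p = 5.8e-29), while Chrna7 was lower (-0.39, SE 0.07, adjusted p = 1.1e-05). Of all features, 15.4% were called higher in the thalamus and 21% lower. The Chrna7 call was lost when spots were thinned (adjusted p = 0.147). Chrna3 (0.33, adjusted p = 0.052), Chrna5 (-0.59, adjusted p = 0.111) and Chrnb4 (0.30, adjusted p = 0.436) did not pass, nor did Chrnb3 (-0.18, adjusted p = 0.923). In the reticular thalamus, where 12.2% of features were called higher and 11.8% lower, Chrna4 was higher by 0.90 (SE 0.10, adjusted p = 3.1e-10) and Chrnb2 by 0.29 (SE 0.08, adjusted p = 0.0050). Chrna3 (-1.49, SE 0.42, adjusted p = 0.0047) and Chrna7 (-0.57, SE 0.15, adjusted p = 0.0031) were lower there. The Chrna3 call was lost when spots were thinned (adjusted p = 0.160), and the Chrna7 call was lost without MF replicate 1 (-0.41, adjusted p = 0.115). The Chrnb2 call was lost without HF replicate 1 (0.25, under the 1.2-fold limit) and without HF replicate 2 (0.29, adjusted p = 0.051). Chrna5 was called higher (1.13, adjusted p = 0.048), and its call was lost without MF replicate 2, HF replicate 1 or HF replicate 2 (0.89 to 1.12, adjusted p = 0.077 to 0.235). The Chrna5 call was also lost with library size alone, with no filter, at a coarser and a finer clustering and without the spots near the habenula.

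Within the cortex, Chrna4 followed the layers. In the subplate (layer 6b) it stood at 103 and 87.2 CPM in MF and 116 and 106 CPM in HF, and in layer 6 at 88.0 and 78.3 in MF and 83.8 and 109 in HF. In layers 2-3 it stood at 33.0 and 30.2 CPM in MF and 25.5 and 19.7 in HF. Deep and upper layers did not overlap. Against the other parts of the cortex, Chrna4 was higher in the subplate by 0.91 (SE 0.13, adjusted p = 1.1e-08), in layer 6 by 0.73 (adjusted p = 3.6e-10) and in spots led by Cplx3, Nxph4 and Ccn2 by 0.85 (adjusted p = 1.4e-17), and lower in layers 2-3 (-1.13, adjusted p = 4.5e-19) and layer 4 (-1.07, adjusted p = 7.9e-19). It was also higher in spots led by Oprk1, Gm45623 and Car3 (0.54, adjusted p = 7.7e-06) and lower in spots led by Tshz2, Pappa and Evc (-0.96, adjusted p = 4.3e-08), where 4.41% of features were called higher and 6.22% lower. The shares of 10771 features called higher were 6.29% in the subplate, 4.02% in layer 6 and 6.68% in the Cplx3-led spots, and the shares called lower were 10.8% in layers 2-3 and 7.16% in layer 4. In layer 5 the Chrna4 mean was 62.3 ± 4.62 CPM. Cplx3, Nxph4 and Ccn2 are themselves subplate markers, but the naming rule left the spots led by them without a name. The spots named subplate were led by Nnat, Col23a1 and Spag16. Chrnb2 had means of 49.9 to 69.5 CPM over the parts of the cortex.

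Chrna7 encodes alpha7, which forms receptors of its own. Its hippocampal level was 68.5 and 59.1 CPM in MF and 62.4 and 67.8 CPM in HF. All 4 values exceeded those of the other tested areas, of which hypothalamus (43.3 ± 7.29), meninges (40.3 ± 4.83), cortex (40.2 ± 2.93) and striatum (33.6 ± 4.11) came next. Spots led by Ndnf, Reln and Dio2, a cluster with no area name, reached 58.9 ± 13.6 and overlapped the hippocampus. Ependyma (28.8 ± 9.87), habenula (25.5 ± 4.24), thalamus (24.3 ± 1.81), reticular thalamus (24.2 ± 4.46) and white matter (21.8 ± 3.71) had the lowest levels, with each overlapping the next.

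Chrna5 encodes alpha5, an accessory subunit. Its level was low, 8.37 and 8.00 CPM in the MF hippocampus and 11.3 and 6.47 CPM in the HF hippocampus, from 173 UMIs in all. Reticular thalamus (4.805 ± 2.16), cortex (3.86 ± 0.260) and habenula (3.78 ± 2.62) followed, and thalamus stood at 1.28 ± 0.418. Hippocampus and reticular thalamus overlapped in their section values, and the hippocampus was 1.09 to 3.23 times the reticular thalamus within sections. Although Chrna5 lies in 1 cluster of genes with Chrna3 and Chrnb4, the habenular level of Chrna5 rested on 19 UMIs, 4 and 2 in MF and 9 and 4 in HF.

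In the hippocampus, Chrna5 was higher than in the other areas by 2.34 (SE 0.20, adjusted p = 2.1e-14) and Chrna7 by 1.14 (SE 0.07, adjusted p = 3.6e-20), and Chrna4 was lower (-0.59, SE 0.08, adjusted p = 1.5e-08), where 16.6% of features were called higher and 21.5% lower. Chrnb3 (1.48, adjusted p = 0.0026), Chrnb4 (1.22, adjusted p = 0.0020) and Chrna3 (0.51, adjusted p = 0.0095) were also called higher. These 3 calls were lost without MF replicate 1, the section with the most UMIs (1.23, 0.50 and 0.16, adjusted p = 0.065, 0.351 and 0.539), and that of Chrna3 also without the spots near the habenula (0.27, adjusted p = 0.212). The Chrna3 call was lost as well with DESeq2 in place of edgeR, when spots were thinned and at a finer clustering. In the cortex, where 19.7% were called higher and 27.4% lower, Chrna5 was higher by 1.16 (SE 0.21, adjusted p = 3.6e-06) and Chrna7 by 0.41 (SE 0.07, adjusted p = 5.8e-07), and Chrnb2 (-0.35, SE 0.05, adjusted p = 4.2e-08) and Chrna3 (-1.01, SE 0.18, adjusted p = 1.9e-06) were lower. In the hypothalamus, with 15.5% of features higher and 16.4% lower, Chrna7 was higher by 0.36 (adjusted p = 3.4e-05) and Chrnb2 by 0.27 (adjusted p = 9.2e-06). These fell under the 1.2-fold limit without HF replicate 1 (Chrna7, 0.24) and without MF replicate 1 (Chrnb2, 0.20). Chrna5 was lower in the hypothalamus (-0.9999, adjusted p = 0.024), a call lost without MF replicate 1 (-0.84, adjusted p = 0.993) and without HF replicate 2 (-0.88, adjusted p = 0.063).

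The remaining areas had no member called higher. In the striatum (13.3% of features higher, 13.9% lower), Chrna3 (-1.62, SE 0.35), Chrna4 (-0.57, SE 0.11) and Chrnb2 (-0.45, SE 0.08) were lower, and Chrnb4, almost without UMIs there, was also called lower. In the white matter (17.9% higher, 19.4% lower), Chrna3 (-1.10, SE 0.29), Chrna4 (-0.51, SE 0.10), Chrna7 (-0.48, SE 0.11) and Chrnb2 (-0.69, SE 0.07) were lower. In the meninges (16.2% higher, 6.44% lower), Chrna3 (-1.21, SE 0.36), Chrna4 (-0.34, SE 0.11) and Chrnb2 (-0.66, SE 0.09) were lower, and in the ependyma (17.1% higher, 17.8% lower), Chrna4 alone was (-1.14, SE 0.20). Without MF replicate 1, the meningeal calls of Chrna3 (-0.80, adjusted p = 0.138) and Chrna4 (-0.28, adjusted p = 0.163) were lost, as was that of Chrna4 without MF replicate 2 (-0.29, adjusted p = 0.097). When spots were thinned, the meningeal calls of Chrna3 and Chrna4 and the ependymal call of Chrna4 (adjusted p = 0.063) were lost. The meningeal Chrna4 call was also lost with library size alone and at a finer clustering. Chrnb4 in the cortex (-1.43, adjusted p = 0.028) was called lower on 40 UMIs and was lost without MF replicate 2 (-1.51, adjusted p = 0.051) and without HF replicate 2 (-1.11, adjusted p = 0.997).

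Thalamus and cortex also differed directly, with 23.6% of features higher in the thalamus and 20.2% lower. Chrna4 was higher in the thalamus by 1.70 (SE 0.07, adjusted p = 4.2e-27), Chrnb2 by 1.35 (SE 0.06), Chrna3 by 1.21 (SE 0.18) and Chrnb4 by 1.56 (SE 0.39, adjusted p = 5.7e-04). Chrna5 (-1.57, SE 0.23), Chrna7 (-0.72, SE 0.08) and Chrnb3 (-0.82, SE 0.32, adjusted p = 0.025) were lower in the thalamus. Chrnb3 and Chrnb4 passed the filter through their habenular counts, and Chrnb4 had 40 UMIs in the cortex.

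Within the hippocampus, Chrna5 was concentrated in CA1, the output field of the hippocampus proper. It stood there at 29.5 and 36.6 CPM in MF and 46.5 and 18.1 CPM in HF, from 15 to 36 UMIs a section, and the next part had a mean of 9.49. Chrna5 was higher in CA1 by 2.92 (SE 0.26, adjusted p = 3.5e-17), where 16.5% of 10077 features were called higher and 19.4% lower. Chrna3 was lower in CA1 (-2.27, adjusted p = 5.0e-06), with 0 to 4 UMIs a section. Chrna3 was highest in spots led by Myoc, Dcn and Ptgds (Dcn and Ptgds are known from leptomeningeal cells), at 38.8 and 31.5 CPM in MF and 44.0 and 12.8 CPM in HF (1.78, adjusted p = 1.3e-09, with 13.9% of features higher). Of these spots, 40.9 to 65.4% lay within 3 steps of a habenular spot, against 6.03 to 13.2% of all hippocampal spots, and the part of this nearness was not tested.

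Chrna7 was highest in hippocampal spots led by Ptgs2, Vit and Tnfaip8l3, at 89.7 and 75.8 CPM in MF and 85.9 and 89.7 CPM in HF, and stood at 76.0 ± 2.53 CPM in CA1. The differences from the other parts were 0.73 (adjusted p = 7.8e-09, with 19.7% of features higher) and 0.45 (adjusted p = 9.3e-04), and both calls were lost when spots were thinned. In the cortex, Chrna7 was higher in layer 6 by 0.49 (adjusted p = 9.2e-04), a call also lost when spots were thinned (adjusted p = 0.326), and in the Oprk1-led spots by 0.57 (adjusted p = 6.1e-05, and 0.130 when thinned). It was lower in spots led by Prph, Iltifb and C1ql2 (-0.99, adjusted p = 3.9e-04, and 0.165 when thinned), where 4.61% of features were called lower. It was also lower in layers 2-3 (-0.29, adjusted p = 0.021), layer 4 (-0.28, adjusted p = 0.022) and the Tshz2-led spots (-0.45, adjusted p = 0.031). The calls in layers 2-3, layer 4 and the Tshz2-led spots were lost when spots were thinned (adjusted p = 0.334, 0.213 and 0.966) and each without some sections. The layers 2-3 call was lost without MF replicate 2, HF replicate 1 or HF replicate 2 (-0.27, -0.27 and -0.22, adjusted p = 0.067, 0.059 and 0.151). The layer 4 call was lost without MF replicate 1 (-0.20, adjusted p = 0.331) or MF replicate 2 (-0.28, adjusted p = 0.057), and the Tshz2-led call without MF replicate 2, HF replicate 1 or HF replicate 2 (-0.43, -0.44 and -0.28, adjusted p = 0.098, 0.077 and 0.340).

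**Figure D3:**
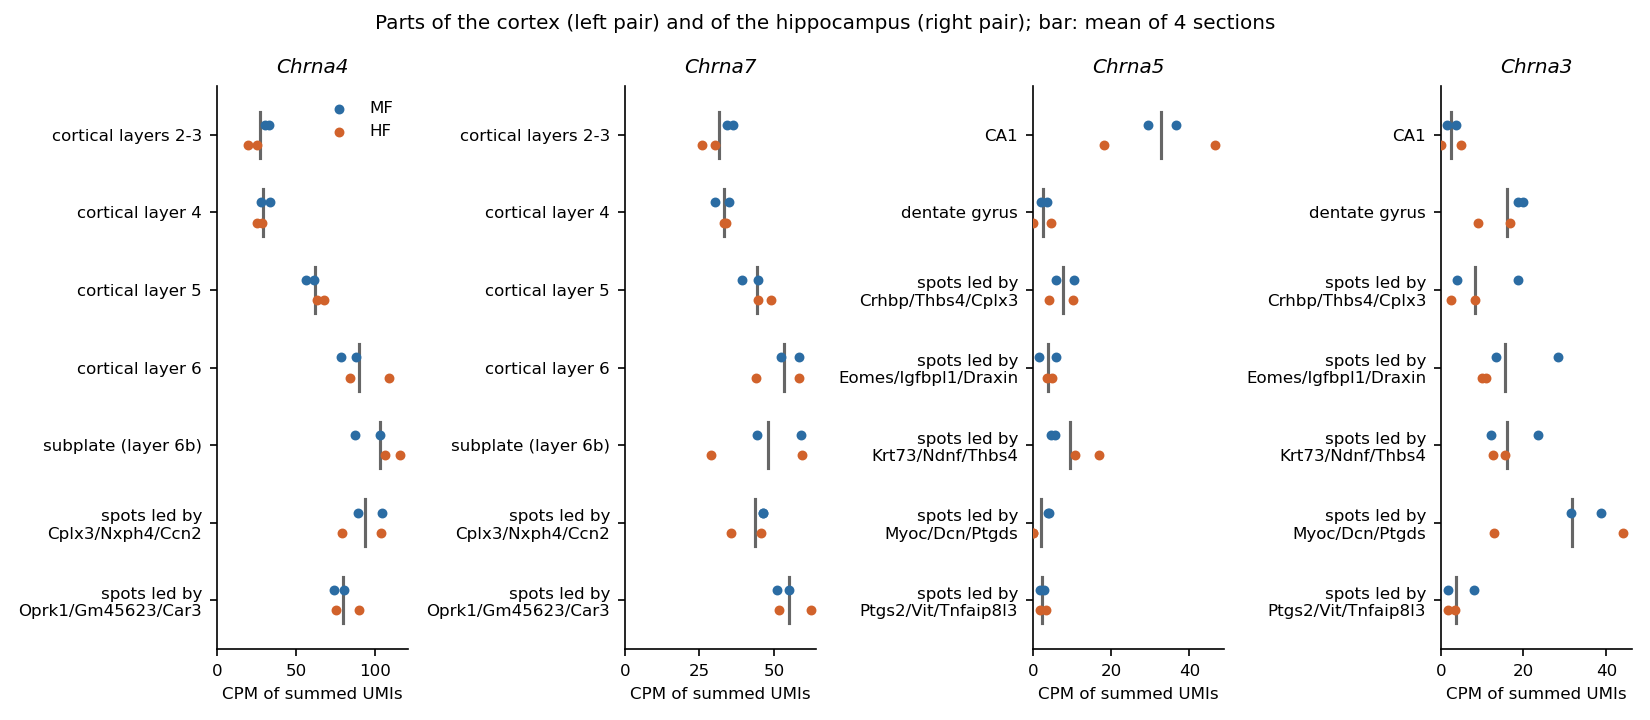
CPM of Chrna4 and Chrna7 in 7 parts of the cortex and of Chrna5 and Chrna3 in 7 parts of the hippocampus, by section (MF blue, HF orange, bar at the mean). Chrna4 is high in the subplate and layer 6 and low in layers 2-3 and 4, and Chrna5 is high in CA1.

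Chrna6, whose product alpha6 joins beta3-containing receptors of dopamine neurons, was counted 25 times in the habenula of the 4 sections. Its habenular level was 3.04 and 3.40 CPM in MF and 4.90 and 7.23 CPM in HF. The mean of 4.64 ± 1.90 CPM was the highest of any area. The untested choroid plexus came next with a mean of 2.31. In sections with a choroid plexus count, the habenula was 0.766 to 1.51 times the choroid plexus, so the order was not the same in all. All other tested areas had means of at most 1.19, and no UMI was counted in the reticular thalamus. Chrna2, which encodes alpha2, had 0 UMIs in the habenula, ependyma and meninges of all sections. A count of 0 allows up to 1.01 to 4.34 CPM in the habenulae. Its highest mean among named and tested areas was 0.588 ± 0.592 CPM in the hypothalamus, and whole sections held 8 to 37 UMIs.

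The deposited Moran's I is a score of how alike neighbouring spots are. Over the 4 sections it was 0.303 to 0.377 for Chrnb4, 0.293 to 0.372 for Chrna4, 0.230 to 0.357 for Chrna3, 0.183 to 0.235 for Chrnb3 and 0.131 to 0.221 for Chrnb2. Chrna7 (0.0372 to 0.0477) and Chrna5 (0.0129 to 0.0524) were low, and Chrna6 and Chrna2 stayed within -0.00241 to 0.0199. The score depends on how often a feature is counted, so it describes each feature and does not compare levels.

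For each member, the features most like it were those with the highest Pearson correlation of log2(CPM + 1) over 40 sums (10 areas in 4 sections, which share libraries), among 11932 features. For Chrna3 they were Irx2 (r = 0.947), Gm5741 (0.897) and Htr5b (0.890), and for Chrnb4 they were Vav2 (0.914), Gm5741 (0.903) and Irx2 (0.898). For Chrnb3 they were Nwd2 (0.942), Cnnm2 (0.924) and Kcnma1 (0.911). Irx2, Gm5741 and Htr5b are among the genes that lead the habenular spots. For Chrna4 they were Adarb1 (0.928), Nefh (0.886) and Ramp3 (0.877), for Chrnb2 Spock2 (0.929), Ndufv3 (0.871) and Gdf11 (0.863), for Chrna7 Plppr2 (0.802), Gpr22 (0.799) and Gabra5 (0.794), and for Chrna5 Ppm1e (0.782), Acan (0.748) and Dock4 (0.741). Chrna6 (Cab39l, 0.781) and Chrna2 (Eipr1, 0.569) had so few UMIs that their likeness is not informative.

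Other genes of cholinergic signalling were counted by list. Of 7 genes of acetylcholine synthesis, transport and breakdown, 6 were tested in the habenula and 5 were called higher, with a median difference of 2.66 on the log2 scale against -0.02 over all features, of which 13.9% were called higher and 13.9% lower. Chat, which makes acetylcholine, was higher by 3.98 (SE 0.30), Slc5a7, the choline transporter, by 3.79 (SE 0.27), Slc18a3, the vesicular transporter, by 3.71 (SE 0.25), Prima1, the membrane anchor of acetylcholinesterase, by 1.60 (SE 0.13) and Ache, acetylcholinesterase, by 0.34 (SE 0.08). Bche, butyrylcholinesterase, was not called (0.08). Habenular Chat stood at 51.0 ± 11.8 CPM. In the Gm5741-led habenular spots, where the members of the alpha3 group were highest, 4 of the 5 tested genes of this list were also higher than in the Gpr151-led spots and 1 was lower, with a median of 2.91, where 11% of features were called higher and 13.2% lower.

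The muscarinic receptors, which couple to G proteins, gave 1 higher and 2 lower of 5 in the habenula, with Chrm2 at 1.25 (SE 0.17), Chrm4 at -1.01 (SE 0.29) and Chrm1 at -0.74 (SE 0.17), against the same 13.9% of features in each direction. Of 8 nicotinic receptor chaperones and Ly6 modulators, 1 was higher and 6 were lower, with a median of -0.53, against 13.9% of all features in each direction. Tmem35a, the chaperone NACHO, was higher by 0.34 (SE 0.08). Lypd6 (-1.09), Lypd1 (-1.03), Ly6e (-0.60), Lypd6b (-0.56), Ly6h (-0.50) and Lynx1 (-0.29), members of the Ly6 family of prototoxin-like proteins, were lower, and Ric3, another chaperone, was not called. None of the 7 muscle-type and other nicotinic subunits passed the filter on low counts.

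HF was compared with MF in whole sections and in 6 areas, to ask whether subunit levels differed with the mothers' FA diet. No member was called in any of 42 tests (edgeR, smallest adjusted p = 0.222). With 2 sections against 2, an exact permutation test of a single value cannot go below p = 0.333, so differences were read from the fit over all features. In whole sections, none of 14971 features was called (0%, 1020 at an unadjusted p under 0.05, and 0 by DESeq2 for the members). The differences were -0.16 for Chrna3 (SE 0.20), -0.03 for Chrna4 (SE 0.10), -0.14 for Chrna5 (SE 0.17), 0.05 for Chrna7 (SE 0.08), -0.10 for Chrnb2 (SE 0.07), -0.02 for Chrnb3 (SE 0.21), -0.05 for Chrnb4 (SE 0.19), 0.48 for Chrna6 (SE 0.24, adjusted p = 0.726) and 0.06 for Chrna2 (SE 0.46). Whole-section Chrna3 was called lower in HF without HF replicate 1 (-0.50, adjusted p = 0.0084), where 7.68% of all features were called. In this and the other comparisons that leave out an HF section, 1 HF section remains and is assumed to vary like the MF sections, and likewise for MF. HF replicate 2, which remains in that comparison, had the fewest habenular spots (32) and the lowest whole-section Chrna3, 12.1 CPM against 16.9 to 19.0 in the others, and the part of the smaller habenula was not tested.

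In the habenula, HF and MF overlapped for Chrna3, Chrna4, Chrnb2, Chrnb3 and Chrnb4. Chrna7 stood at 23.3 and 23.0 CPM in MF and 23.8 and 31.8 CPM in HF. The HF minus MF differences were 0.06 for Chrna3 (SE 0.15), 0.19 for Chrnb4 (SE 0.19), 0.31 for Chrnb3 (SE 0.20), -0.24 for Chrna4 (SE 0.20), -0.04 for Chrnb2 (SE 0.16) and 0.20 for Chrna7 (SE 0.28), with adjusted p of at least 0.92, and 9 of 11155 features (0.0807%) were called. Without HF replicate 1, Chrnb3 (0.77, adjusted p = 0.026) and Chrnb4 (0.66, adjusted p = 0.030) were called higher, where 1.54% of features were. In the Gm5741-led spots the Chrna3 difference was -0.26 and in the Gpr151-led spots 0.40, neither called (0.051% and 0.0538% of features were). Chrna5 and Chrna6 were higher in both HF habenulae than in both MF habenulae, on 19 and 25 UMIs, as were 18.2% of the 13192 features with at least 10 UMIs there, and neither passed the filter on low counts.

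In the thalamus, Chrna4 differed by 0.03 (SE 0.09) and Chrnb2 by -0.06 (SE 0.10), both less than their standard errors. Chrnb3 (0.63, SE 0.50) and Chrnb4 (0.65, SE 0.51) had wide errors and stood at 0.01 and 0.04 (adjusted p = 0.998 and 0.993) without the spots near the habenula. No feature was called (0%, 961 at an unadjusted p under 0.05), and Chrnb4 was called higher without HF replicate 2 (1.21, adjusted p = 0.012, with 9.49% of features called). The 3 thalamic clusters took different shares of the sections, but Chrna4 was not called within any of them (0.19, 0.08 and -0.04, with 0%, 0% and 0.321% of features called). In the cortex, Chrna3 was 5.73 and 6.76 CPM in MF and 4.81 and 3.56 in HF (-0.56, SE 0.23, adjusted p = 0.563), and 0.152% of features were called.

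The hippocampus had the lowest adjusted p. Chrna4 stood at 43.3 and 44.9 CPM in MF and 33.2 and 28.9 CPM in HF, and Chrnb2 at 67.1 and 71.8 in MF and 49.3 and 57.8 in HF. HF lay below MF without overlap for both genes, as it did for 20.8% of the 14047 features with at least 10 UMIs in the hippocampus. The differences were -0.50 for Chrna4 (SE 0.13, adjusted p = 0.222), -0.35 for Chrnb2 (SE 0.12, adjusted p = 0.419), -0.66 for Chrna3 (SE 0.25, adjusted p = 0.494), -1.15 for Chrnb3 (SE 0.38, adjusted p = 0.376) and -1.37 for Chrnb4 (SE 0.47, adjusted p = 0.415), where 0.232% of 12478 features were called. Chrnb4 rested on 60 and 16 UMIs in MF and 2 and 16 in HF. The differences were 0.03 for Chrna7 and 0.07 for Chrna5, and the median over the 7 tested members was -0.50 against 0.00 over all features.

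Several hippocampal values changed when a section or the spots near the habenula were left out. Chrna4 (-0.58, adjusted p = 0.011) and Chrna3 (-0.93, adjusted p = 0.010) were called without HF replicate 1 (4.95% of features called), and Chrnb4 without HF replicate 2 (-3.25, adjusted p = 0.0038, 1.1% called) and with no filter on low counts (-1.37, adjusted p = 0.029). In the spots led by Myoc, Dcn and Ptgds, Chrna4 was 80.9 and 76.9 CPM in MF and 33.5 and 35.2 in HF (-1.199, SE 0.29, adjusted p = 0.104, with 0.17% of features called). Without the spots near the habenula, the hippocampal Chrna4 difference was -0.39 (SE 0.14, adjusted p = 0.439) and that of Chrnb2 -0.27 (SE 0.12, adjusted p = 0.582), while those of Chrnb3 (-1.76, SE 0.49, adjusted p = 0.259) and Chrna3 (-0.73, SE 0.28, adjusted p = 0.472) were larger than with these spots. Chrnb4 then fell below the filter on low counts.

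In the hypothalamus (0%, 802 features at an unadjusted p under 0.05) Chrnb2 differed by -0.28 (adjusted p = 0.782), and in the striatum (0.0629%) Chrna4 differed by -0.23. Whether the diet difference varied between the 6 areas was tested as an interaction, in which no member was called (smallest adjusted p = 0.565, Chrnb3) and 0.0962% of features were. Without HF replicate 1, Chrnb3 (adjusted p = 0.031) and Chrna3 (adjusted p = 0.044) were called in it, with 3.06% of features, and without HF replicate 2 Chrnb4 was (adjusted p = 0.033), with 0.493%. No gene of the 4 other cholinergic lists was called in whole sections or any of the 6 areas. The lowest adjusted p, 0.189, belonged to the acetylcholine list in the hippocampus, where the 5 tested genes had a median of -0.81. In the habenula, 5 of the 6 tested genes of this list were called higher than in the other areas, against 13.9% of all features. This list was not compared between diets without the spots near the habenula, so their part was not tested.

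**Figure D4:**
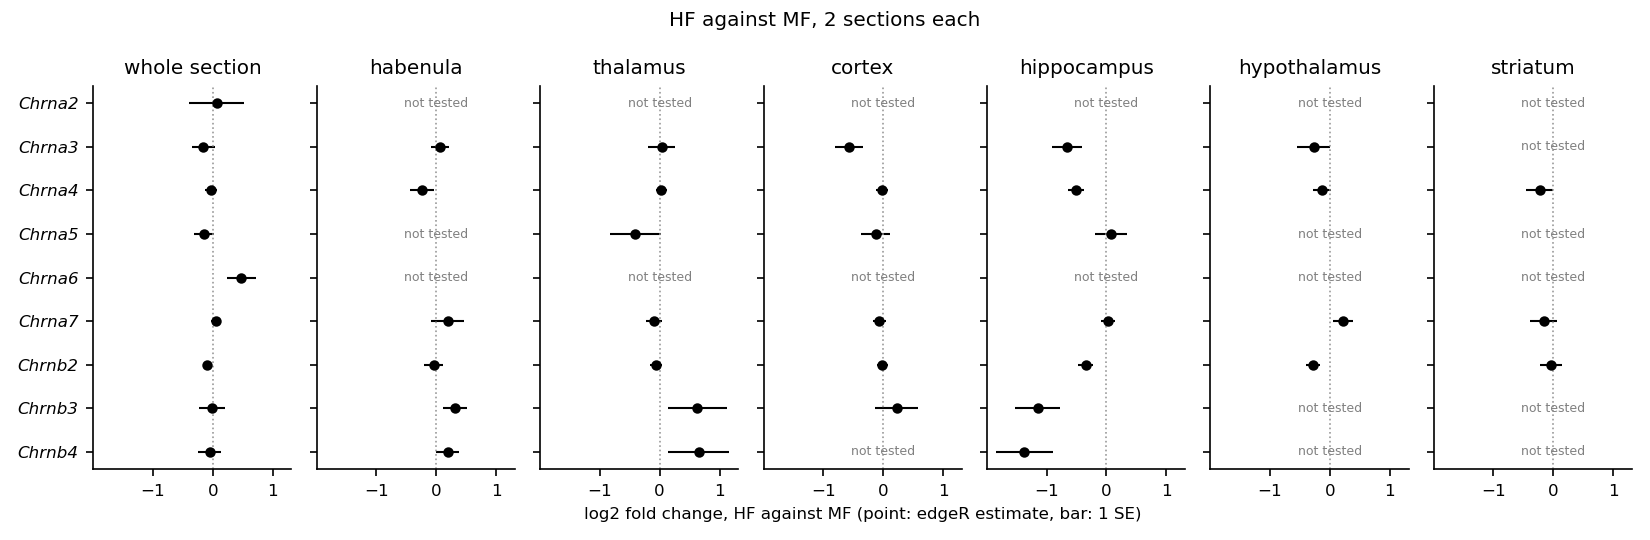
Log2 difference HF minus MF of the 9 members with 1 SE, in whole sections and 6 areas, with members below the filter marked as not tested. The hippocampal values of Chrna3, Chrna4, Chrnb2, Chrnb3 and Chrnb4 lie below 0, and none was called.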

How the data were processed

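Visium-FFPE libraries of 4 coronal brain sections, 2 from MF and 2 from HF offspring, were analysed. The authors deposited raw UMI counts per probe feature and spot, made with Space Ranger on mm10 from spots under tissue, with nothing pooled. The authors also deposited Moran's I, a score per feature and section. The p-values and normalised means in that table and the image scale factors were not used. Probe counting measures hybridised probe pairs, so a level depends on the probe set, and depth differed between sections.

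Spots with at least 500 UMIs and 250 genes were kept, as in the study. They were clustered in Python 3.11.15 with scanpy 1.11.5 and leidenalg 0.10.2 (2000 variable genes, 30 components, 20 neighbours, resolution 1), leaving out the members, the other cholinergic genes, mitochondrial genes, Xist and Tsix. No doublet caller was run on spots. An area was named when at least 3 of its markers were among the top 50 genes of a cluster, and tested with at least 10 spots in each section (10 areas). UMIs were summed per area and section and tested with edgeR 4.0.16 (R 4.3.3, TMM, filterByExpr, quasi-likelihood), with section as a block for areas. Calls needed a p, adjusted after Benjamini and Hochberg, under 0.05 and at least a 1.2-fold difference. The scripts were tested on simulated data. Alternatives were DESeq2 1.42.0, library size alone, no filter, thinning to 5000 UMIs, resolutions 0.5 and 2, a marker-drawn habenula, a replicate block and leaving out each section. Leaving out spots within 3 steps of the habenula, contrasts between 2 areas, tests within clusters and a crossed block were chosen after seeing the data. All 9 members are named. Genes of the cholinergic lists are named where called, and the 3 features most like each member were chosen among those with at least 10 CPM in 1 area. The members and lists were chosen with earlier results of these data known. A count of 0 is given with the level of 3 UMIs as its limit, which covers counting error only. Intervals of single shares are not given. Coordinates are those of the GRCm38 annotation, which is the build mm10.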

Additional observations from a re-analysis of the deposited data

How the results depend on the processing

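The differences of Chrna3 (4.98 to 5.37 on the log2 scale), Chrnb4 (5.88 to 6.45) and Chrnb3 (5.31 to 6.35) in the habenula, of Chrna4 (1.87 to 2.03) and Chrnb2 (1.08 to 1.25) in the thalamus, and of Chrna7 (0.93 to 1.24) in the hippocampus kept their direction and their call under all 12 alternatives, and that of Chrna5 in the hippocampus (2.09 to 2.77) under all 11 that gave a value. The Chrna5 difference was not tested with thinned spots. Chrnb3 and Chrnb4 passed the filter through their habenular counts, so their kept habenular calls rest on the area that admitted them. The Chrnb3 difference also depends on how the fit treats the ependymal count of 0, where the ependyma is among the areas. Of 68 other called values of members in areas and their parts, 30 kept the call under every alternative, 38 lost it under at least 1 and none changed direction. The number of member calls over areas, 40 with 7 members tested in each of 10 areas, was 23 of 60 tests with thinned spots and 33 to 46 otherwise. Fewer UMIs were counted in the thinned spots. In the main setting, 12.2 to 19.7% of all features were called higher in an area and 6.44 to 27.4% lower. The number of member calls between HF and MF over 42 tests, 0, was 1 with no filter on low counts and 0 to 5 when a section was left out (5 calls of 4 members without HF replicate 1, 2 calls of 1 member without HF replicate 2), and in the interaction, 0, it was 0 to 2 (2 without HF replicate 1, 1 without HF replicate 2). The cause was not tested. The replicate numbers were not taken as pairs. MF replicate 1 and HF replicate 1 deviated from their group means with r = -0.165 over 14971 features. With 2 sections a group, the crossed pairing has the same value with the opposite sign, so this cannot show whether sections were paired. With the replicate number as a block, 0 members were called in 42 tests, and with the crossed pairing 0. Over all features, the calls without a block, with it and with the crossed pairing were 0, 0 and 11 in whole sections, 9, 32 and 39 in the habenula, 0, 47 and 77 in the thalamus, 0, 7 and 0 in the hypothalamus, 7, 8 and 28 in the striatum, 20, 94 and 111 in the cortex and 29, 1 and 110 in the hippocampus.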
